A study of Homo sapiens with 24 samples.

Results

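Toll-like receptors and the proteins that work beside them were followed in 4 acute myeloid leukemia cell lines. The set holds 10 genes of the pathway, namely TLR1, TLR2, TLR4, TLR5, TLR7, TLR8, CD180, LY96, MYD88 and IRAK3. All 10 were measured, out of 12165 genes on the array. A gene was read from probe sets annotated with a single symbol, and where it had several, the one with the highest mean stood for it. The 8 groups were MOLM-14 with 4 µM R406 for 24 h and MOLM-14 with its solvent DMSO for 24 h, and the same pair of treatments in U937, KG-1 and HL-60, with 3 arrays a group. R406 is a small-molecule inhibitor of the kinase SYK that also hits other kinases. Each line comes from a single patient and stands for that patient only. MOLM-14 has monocytic features and an MLL fusion, U937 is monocytic, KG-1 resembles immature myeloblasts and HL-60 resembles promyelocytes. The dose is in µM in the treatment protocol, followed here, and in mM in the design summary.

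Toll-like receptors sense microbial molecules and are a hallmark of monocytes, macrophages and neutrophils. TLR2 binds bacterial lipopeptides as a dimer with TLR1 or TLR6, TLR4 senses lipopolysaccharide, TLR5 senses flagellin, and TLR7 and TLR8 sense single-stranded RNA in endosomes. TLR4 needs the small secreted protein MD-2, the product of LY96, to bind lipopolysaccharide, which CD14 hands over. CD180 is a related surface receptor without a signalling domain of the Toll type, and it pairs with MD-1, the product of LY86. MYD88 is the adaptor through which most of these receptors signal, and IRAK3 encodes IRAK-M, a kinase-like protein that restrains signalling below them.

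Promoter sequences are given for the receptor TLR4, for the receptor CD180 and its partner LY86, all of which were higher under R406 in MOLM-14, and for TLR2, which was lower there. RefSeq promoter windows on GRCh38.p14, from 250 bases before to 50 after the annotated start, matched 7 of the 10 members, and TLR1, TLR7 and LY96 were not matched. The windows lie at chr9:117704153-117704452 (plus strand), chr5:67196750-67197049 (minus strand), chr6:6588470-6588769 (plus strand) and chr4:153684030-153684329 (plus strand), and are written 5′ to 3′ on the gene's strand. Capitals mark GAGGAA on either strand, a form of the site bound by the myeloid factor PU.1. Other forms of that site were not marked.
TLR4: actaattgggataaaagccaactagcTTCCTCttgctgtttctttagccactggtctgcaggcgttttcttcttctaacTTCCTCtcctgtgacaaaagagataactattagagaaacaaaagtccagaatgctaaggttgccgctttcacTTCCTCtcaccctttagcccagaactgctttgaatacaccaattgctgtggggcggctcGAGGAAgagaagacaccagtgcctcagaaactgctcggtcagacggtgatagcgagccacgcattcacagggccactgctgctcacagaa
CD180: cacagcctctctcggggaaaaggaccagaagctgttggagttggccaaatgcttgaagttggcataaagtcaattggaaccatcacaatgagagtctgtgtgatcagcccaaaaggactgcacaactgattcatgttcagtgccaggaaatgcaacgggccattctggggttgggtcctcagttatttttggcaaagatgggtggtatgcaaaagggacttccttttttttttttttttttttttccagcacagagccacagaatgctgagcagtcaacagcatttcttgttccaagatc
LY86: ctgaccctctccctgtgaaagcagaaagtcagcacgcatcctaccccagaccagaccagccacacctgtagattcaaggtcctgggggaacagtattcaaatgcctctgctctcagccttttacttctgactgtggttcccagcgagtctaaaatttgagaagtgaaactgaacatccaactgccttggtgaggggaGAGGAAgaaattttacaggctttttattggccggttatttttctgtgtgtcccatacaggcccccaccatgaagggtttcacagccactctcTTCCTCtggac
TLR2: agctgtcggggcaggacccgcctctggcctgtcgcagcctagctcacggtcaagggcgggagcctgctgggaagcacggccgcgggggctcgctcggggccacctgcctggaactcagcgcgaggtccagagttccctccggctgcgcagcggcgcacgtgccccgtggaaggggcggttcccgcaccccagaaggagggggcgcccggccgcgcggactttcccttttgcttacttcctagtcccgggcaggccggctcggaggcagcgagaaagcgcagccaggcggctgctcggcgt
GAGGAA was found 4 times in the TLR4 window and 2 times in the LY86 window, and it did not occur in the CD180 or TLR2 window. Of 35116 promoters of the same length, 27.9% held it. A match describes these letters and is not a measured binding site.

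Intensities are the deposited RMA values on a linear scale, in arbitrary units. They ran from 3.41 to 12686 over all probe sets, with array medians of 19.1 to 21.4, and the precision is limited by having 3 arrays a group. Each difference is the R406 mean minus the DMSO mean of log2(intensity + 1), a scale that understates changes of dim genes. It is given ± SE from 1 limma fit over all genes and all 24 arrays. A gene was called at a Benjamini-Hochberg adjusted p under 0.05. Treatment was in triplicate, but whether the triplicates were independent cultures is not stated, so p-values measure only the spread between these samples, which may be technical. In bulk RNA, fewer cells of a type and less RNA per cell cannot be told apart. KG-1 R406 replicate 2 stood furthest from its group, at a root mean square log2 distance of 0.269, and the other arrays lay at 0.132 to 0.242 from their own groups. The KG-1 differences are therefore also given without it. Of the 7 myeloid markers measured, MPO had a DMSO mean of 6416 in HL-60, 44.0 in MOLM-14, 10.9 in U937 and 28.5 in KG-1. CD34 had 613 in KG-1 and 17.0 to 18.1 elsewhere. ELANE averaged 3034 in MOLM-14, 2944 in U937, 2642 in HL-60 and 9.18 in KG-1, and AZU1 792, 186, 160.1 and 9.57. DMSO means ran from 15.1 to 35.4 for SPI1 and 13.4 to 19.0 for CSF1R, both highest in HL-60. CD14 averaged 279 in HL-60 and 5.56 to 7.40 elsewhere. The description of MOLM-14 and U937 as monocytic thus does not rest on these values. Of 12 measured markers of non-myeloid cells, 10 stayed at or below 44.0 on every array. NCAM1 was at 229 to 273 in MOLM-14 R406 and 303 to 356 in MOLM-14 DMSO, and COL3A1 was at 67.8 to 116 in KG-1 R406 and at most 10.2 on all other arrays. The summed level of the 4 T and NK cell markers was 266 to 301 with R406 and 334 to 390.1 with DMSO in MOLM-14, and that of the 4 epithelial and fibroblast markers was 99.3 to 147 with R406 and 39.5 to 44.0 with DMSO in KG-1. The summed level of the 7 measured myeloid markers was 4186 to 4377 with R406 and 5329 to 5729.5 with DMSO in MOLM-14, and 7641 to 8125 with R406 and 11228 to 12054 with DMSO in HL-60, lower with R406 in both. It was 5099 to 5166 with R406 and 4331 to 4589 with DMSO in U937, and 1403 to 1521 with R406 and 1088 to 1259 with DMSO in KG-1, higher with R406 in both. Such sums mostly follow the brightest genes, among them MPO in HL-60 (DMSO mean 6416) and CD34 (613) and CEBPA (468) in KG-1. Within the myeloid list CSF1R, a receptor of monocytes, was at 61.5 to 82.6 with R406 and 16.8 to 17.4 with DMSO in MOLM-14. The ratio of 3′ to 5′ ACTB probe sets, which is higher in more degraded RNA, was 0.82 (log2) with R406 and 0.48 with DMSO in MOLM-14, and 0.85 with R406 and 0.73 with DMSO in KG-1. In HL-60 it went the other way, with 0.75 with R406 and 0.87 with DMSO, and in U937 it was 0.45 with R406 and 0.49 with DMSO. The same ratio of GAPDH differed by 0.078 in MOLM-14 and 0.10 in KG-1, R406 minus DMSO. All of these but the U937 comparison gave a 2-sided exact permutation p of 0.100, the smallest that 3 arrays against 3 can give. The part of these values in the results was not tested.

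LY96, the MD-2 gene, rose in 3 of the 4 lines and had the largest R406 effects of the 10 genes in MOLM-14, U937 and KG-1. In MOLM-14 it read 143, 136 and 129.9 with R406 and 21.8, 22.1 and 14.4 with DMSO. The difference was 2.77 ± 0.14, a 6.83-fold rise on this scale (limma adjusted p = 8.14e-14). In U937 the R406 arrays read 32.7, 33.5 and 35.5 and the DMSO arrays 9.47, 10.4 and 10.2, a difference of 1.66 ± 0.14 (limma adjusted p = 9.22e-08; 0.94 with a pseudocount of 16). All R406 arrays lay above all DMSO arrays in both lines, and MOLM-14 with R406 passed the DMSO level of KG-1. KG-1 had the highest DMSO level, with 87.0, 89.0 and 89.3, and its R406 arrays read 209.7, 150.3 and 209.9. The difference in KG-1 was 1.08 ± 0.14 (limma adjusted p = 8.21e-07), or 1.24 without R406 replicate 2. In HL-60 the arrays read 22.3, 22.4 and 17.2 with R406 and 16.9, 13.1 and 16.7 with DMSO. There the groups did not overlap, but the difference of 0.38 ± 0.14 did not pass (limma adjusted p = 0.0702).

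The size of the LY96 rise depended on the line. It was larger in MOLM-14 than in U937 by 1.11 ± 0.20 (limma adjusted p = 6.59e-05), and larger in U937 than in KG-1 by 0.59 ± 0.20 (limma adjusted p = 0.0245). That step was 0.43 ± 0.19 without KG-1 R406 replicate 2 and did not pass (limma adjusted p = 0.0923). With a pseudocount of 16 the rise was 0.94 in U937 and 0.97 in KG-1, so the order of U937 and KG-1 depended on the pseudocount. The rise was larger in KG-1 than in HL-60, with the HL-60 effect minus the KG-1 effect at -0.69 ± 0.20 (limma adjusted p = 0.00757; -0.85 without KG-1 R406 replicate 2). With DMSO, KG-1 stood above MOLM-14 by 2.15 (limma adjusted p = 5.38e-12), while MOLM-14 and HL-60 differed by 0.29 and did not pass (limma adjusted p = 0.100), and HL-60 stood above U937 by 0.58 (limma adjusted p = 0.00121). The genes whose log2 intensities followed LY96 most closely over the 24 arrays were ARL6IP5 (Pearson r = 0.971), SERPINI1 (0.944) and BNIP3L (0.941). These arrays share lines and treatments, so the values describe a likeness of pattern only.

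TLR4, the receptor that MD-2 serves, was called higher in MOLM-14, at levels near the bottom of the array's range and below the array medians. It read 12.2, 8.00 and 8.23 with R406, against 6.21, 6.52 and 6.31 with DMSO. The R406 arrays were higher without overlap, and the difference of 0.49 ± 0.15 passed (limma adjusted p = 0.00855), but without R406 replicate 1 (0.31) or with a pseudocount of 16 (0.18) it did not. In the other lines no TLR4 difference passed, with -0.16 ± 0.15 in U937, -0.0074 ± 0.15 in HL-60 and 0.12 ± 0.15 in KG-1 (0.082 without R406 replicate 2). The effect was not shown to differ between lines (limma F test, adjusted p = 0.0657), and of the MOLM-14 pairs the one with U937 passed, at 0.65 ± 0.21 (limma adjusted p = 0.0162). With DMSO, HL-60 at 35.9 ± 1.66 and U937 at 33.2 ± 9.19 (SD, n = 3) did not differ beyond their spread. Both stood above MOLM-14 and KG-1, which averaged 6.35 ± 0.161 and 6.29 ± 0.297 and did not differ either. LY96 and TLR4 thus had different DMSO orders, with KG-1 highest for LY96 and among the lowest for TLR4.

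**Figure D1:**
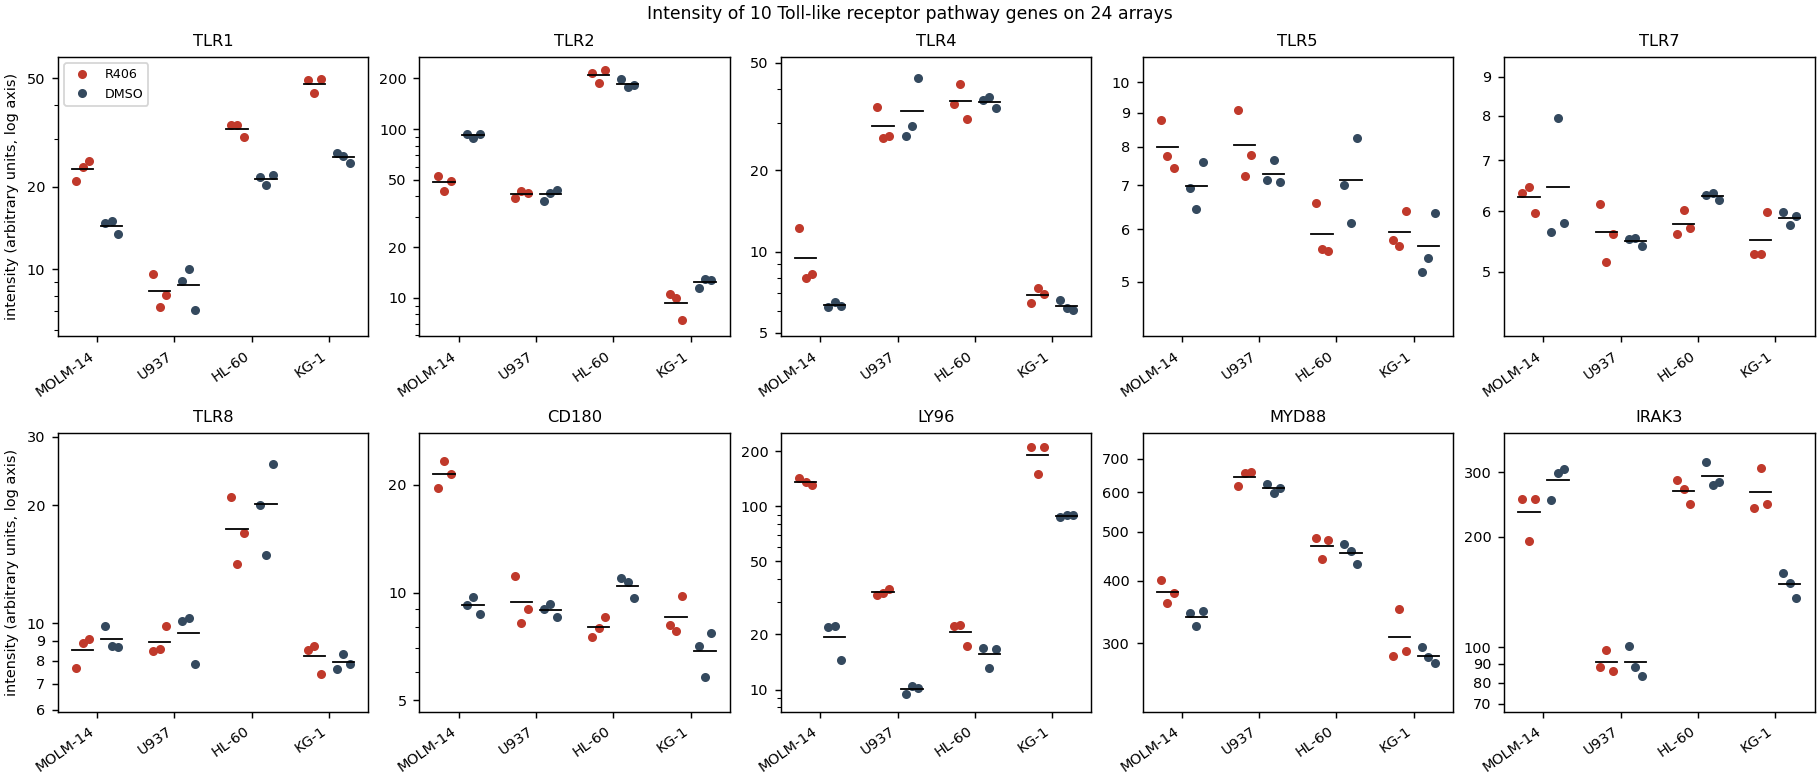
Intensity (log axis, arbitrary units) of each gene on every array, by cell line, with R406 in red to the left of DMSO in dark blue; points are arrays and bars are means of 3. LY96 lies higher with R406 in every line without overlap, TLR2 lies lower in MOLM-14 and KG-1, and TLR5 and TLR7 stay below 10 on all 24 arrays.

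TLR1 rose in MOLM-14, HL-60 and KG-1, and its difference did not pass in U937, the line where it was lowest. In KG-1 it read 49.4, 44.2 and 49.8 with R406 and 26.7, 25.9 and 24.4 with DMSO, a difference of 0.87 ± 0.10 (limma adjusted p = 1.59e-07; 0.93 without R406 replicate 2). The MOLM-14 arrays read 21.1, 23.6 and 24.9 with R406, against 14.8, 15.0 and 13.4 with DMSO, a difference of 0.65 ± 0.10 (limma adjusted p = 7.51e-06; 0.36 with a pseudocount of 16). The HL-60 arrays read 33.8, 33.6 and 30.5 with R406 and 21.7, 20.4 and 22.1 with DMSO, a difference of 0.59 ± 0.10 (limma adjusted p = 0.000253; 0.38 with a pseudocount of 16). In these lines no R406 array overlapped a DMSO array. In U937 the arrays read 9.60, 7.28 and 8.05 with R406 and 9.07, 10.0 and 7.11 with DMSO, and the difference of -0.061 ± 0.10 did not pass. These U937 values all lay below the array medians, where a change is understated, which limits the comparisons with U937. The effect in U937 was below that in KG-1 by -0.93 ± 0.14 (limma adjusted p = 2.03e-05; -0.99 without KG-1 R406 replicate 2) and below that in HL-60 by -0.65 ± 0.14 (limma adjusted p = 0.00500), whereas no difference among MOLM-14, HL-60 and KG-1 passed (limma adjusted p = 0.134 to 0.772). TLR6, which lies with TLR1 on chromosome 4 and resembles it in sequence, changed by 0.61 ± 0.11 in MOLM-14, and its 0.29 in HL-60 and 0.22 in KG-1 (0.23 without R406 replicate 2) did not pass. Whether the TLR1 probe set also reads TLR6 transcripts was not tested.

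TLR2, the partner of TLR1, fell in MOLM-14 and KG-1. In MOLM-14 it read 52.8, 43.1 and 49.0 with R406 and 93.0, 89.2 and 93.5 with DMSO, a difference of -0.92 ± 0.10 (limma adjusted p = 4.06e-08). In KG-1 it read 10.5, 9.91 and 7.42 with R406 and 11.5, 13.0 and 12.7 with DMSO, a difference of -0.39 ± 0.10 (limma adjusted p = 0.00227; -0.44 without R406 replicate 2 and -0.17 with a pseudocount of 16, both still called). Neither pair of groups overlapped, though the KG-1 values all lay below the array medians. U937 arrays read 39.3, 43.2 and 41.7 with R406 and 37.7, 41.9 and 43.6 with DMSO, and HL-60 arrays 215, 188 and 223 with R406 and 199, 178 and 182 with DMSO. These overlapped, and the differences of 0.013 ± 0.10 and 0.16 ± 0.10 did not pass. The effect in MOLM-14 was below that in KG-1 by -0.52 ± 0.14 (limma adjusted p = 0.00614; -0.47 without KG-1 R406 replicate 2). The DMSO order was HL-60, MOLM-14, U937 and KG-1, and each step of it passed, by 1.01, 1.15 and 1.65. TLR1 and TLR2 moved apart in MOLM-14 and KG-1, each in its own probe set, and the KG-1 line that was highest for TLR1 was lowest for TLR2.

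CD180 had its largest rise in MOLM-14. Its arrays there read 19.6, 23.3 and 21.4 with R406 and 9.21, 9.74 and 8.72 with DMSO, a difference of 1.13 ± 0.10 or 2.19-fold (limma adjusted p = 1.79e-09). With a pseudocount of 16, which weighs dim values less, it was 0.57 and still passed. The MOLM-14 effect exceeded those in U937, KG-1 and HL-60 by 1.08, 0.85 and 1.48 ± 0.14 each (limma adjusted p = 1.73e-06, 7.35e-05 and 1.52e-08), and that in KG-1 by 0.79 without KG-1 R406 replicate 2. In HL-60 the arrays read 7.51, 7.95 and 8.56 with R406 and 11.0, 10.7 and 9.63 with DMSO, a fall of -0.34 ± 0.10 (limma adjusted p = 0.0245; -0.14 with a pseudocount of 16). In KG-1 they read 8.11, 7.81 and 9.76 with R406 and 7.10, 5.81 and 7.70 with DMSO, a rise of 0.28 ± 0.10 (limma adjusted p = 0.0276; 0.34 without R406 replicate 2). Those groups did not overlap either, but the levels were near the bottom of the array's range and both calls were lost in several refits. The HL-60 call was lost without DMSO replicate 1 (-0.31) or 2 (-0.33) and without R406 replicate 1 (-0.30) or 2 (-0.34). The KG-1 call was lost without DMSO replicate 2 (0.18) or R406 replicate 3 (0.19), after median centring (0.21), with a pseudocount of 16 (0.10) and in a fit of the KG-1 arrays alone (0.28). RIN2, CYP2E1 and SYT17 had the most similar pattern over the 24 arrays (Pearson r = 0.943, 0.935 and 0.932).

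LY86, which encodes the CD180 partner MD-1, changed in the same direction as CD180 in MOLM-14, HL-60 and KG-1, and from a much brighter probe set. It read 941, 1004 and 923 in MOLM-14 with R406 and 357, 333 and 329 with DMSO, a difference of 1.49 ± 0.088 (limma adjusted p = 1.24e-12). In KG-1 it read 59.1, 46.7 and 53.3 with R406 and 19.0, 23.9 and 18.7 with DMSO (1.33 ± 0.088, limma adjusted p = 2.47e-11; 1.41 without R406 replicate 2). In U937 it read 136, 128 and 138 with R406 and 91.7, 83.1 and 82.3 with DMSO, a rise of 0.64 ± 0.088 (limma adjusted p = 3.79e-05), where CD180 differed by 0.055 ± 0.10 and did not pass. In HL-60 it read 90.5, 95.1 and 102 with R406 and 124, 124 and 127 with DMSO, a fall of -0.38 ± 0.088 (limma adjusted p = 0.00391). The LY86 groups were free of overlap in all 4 lines.

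CD14, the lipopolysaccharide carrier, stood above the array medians in HL-60 alone. It read 812, 883 and 864 there with R406 and 348, 249 and 241 with DMSO, a rise of 1.63 ± 0.13 (limma adjusted p = 7.25e-09). In the other 3 lines every array lay between 5.26 and 9.28 and no difference passed. In HL-60, where CD14 rose, the LY96 difference of 0.38 did not pass, although its groups did not overlap. A relation between CD14 and LY96 across the lines was not tested.

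**Figure D2:**
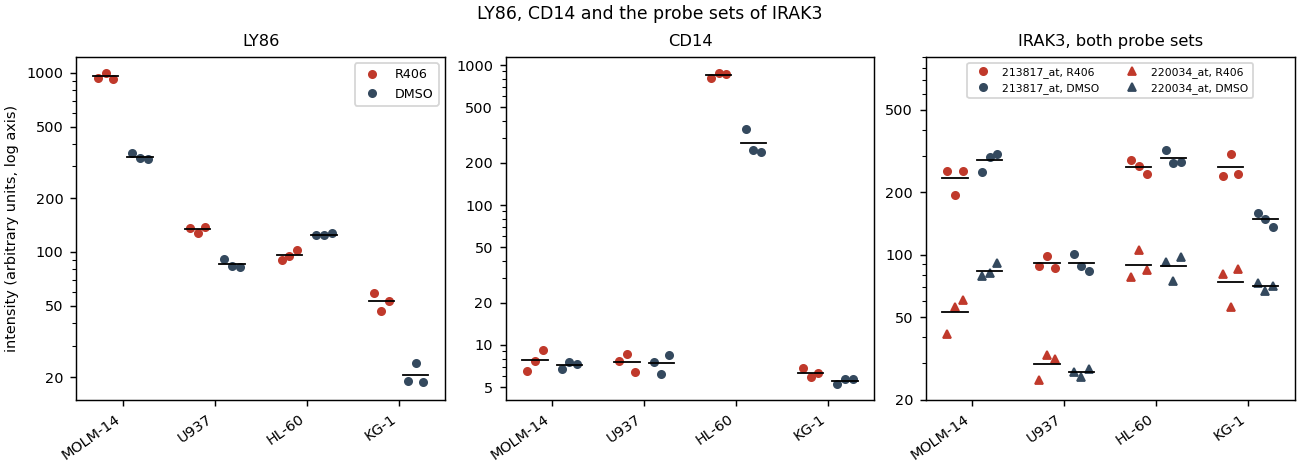
Intensity (log axis, arbitrary units) on every array of LY86, CD14 and both probe sets of IRAK3, by cell line, with R406 in red to the left of DMSO in dark blue; bars are means of 3. LY86 rises in MOLM-14, U937 and KG-1 and falls in HL-60, and CD14 is high only in HL-60. In KG-1 the IRAK3 rise passed only on the brighter probe set (circles).

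IRAK3, the inhibitor, was called higher in KG-1 on 1 of its 2 probe sets. The brighter one read 239.7, 307 and 246 with R406 and 159, 149.6 and 136 with DMSO in KG-1, without overlap. The difference was 0.82 ± 0.11 (limma adjusted p = 2.50e-06), or 0.71 without R406 replicate 2. The dimmer one read 81.1, 55.7 and 85.0 with R406 and 73.4, 66.8 and 71.0 with DMSO. Its difference of 0.047 ± 0.15 did not pass (limma adjusted p = 0.861 over all probe sets). R406 replicate 2 was the lowest array there, and R406 replicates 1 and 3 lay above all DMSO arrays. A fit of this probe set without R406 replicate 2 was not run. The mean of both probe sets gave 0.43, which passed. In MOLM-14 both probe sets were lower, by -0.29 ± 0.11 (limma adjusted p = 0.0375) on the brighter and by -0.67 ± 0.15 (limma adjusted p = 0.000669) on the dimmer. The first of these overlapped between groups, with 254, 195 and 253 with R406 and 252, 298 and 306 with DMSO, and its call was lost in 6 refits, among them quantile normalization (-0.18) and R406 replicate 2 left out (-0.16). The second did not overlap, with 41.7, 56.0 and 60.5 with R406 and 78.6, 81.4 and 91.0 with DMSO. In U937 and HL-60 the differences of 0.0029 and -0.13 ± 0.11 did not pass. On the brighter probe set the effect in KG-1 exceeded those in MOLM-14, HL-60 and U937 (log2 differences of -1.11, -0.96 and -0.82 ± 0.16, each as the other line minus KG-1, limma adjusted p = 1.22e-05, 5.88e-05 and 0.000362). Without KG-1 R406 replicate 2 those with HL-60 and U937 were -0.84 and -0.71, and all 3 passed. AKAP11, BTAF1 and MTERF1 had the most similar pattern over the 24 arrays (Pearson r = 0.945, 0.940 and 0.938).

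MYD88, the shared adaptor, stayed within 1.12-fold in each line and was bright on all arrays, from 274 to 657. In MOLM-14 it read 401, 361 and 378 with R406 and 344, 324 and 348 with DMSO, a difference of 0.16 ± 0.074 that did not pass (limma adjusted p = 0.0651), although the groups did not overlap. That value passed in 6 refits, among them quantile normalization (0.25) and median centring (0.18). The differences in U937, HL-60 and KG-1 were 0.072, 0.048 and 0.11 ± 0.074 (0.017 in KG-1 without R406 replicate 2), and none passed. The mean of the 4 lines, 0.10 ± 0.037, passed (limma adjusted p = 0.0273). That call was lost after median centring (0.078) and without MOLM-14 DMSO replicate 2 (0.092), MOLM-14 R406 replicate 1 (0.090) or HL-60 DMSO replicate 3 (0.091), and no difference in effect between lines passed (limma F test, adjusted p = 0.768). With DMSO the order was U937 at 611 ± 12.1, HL-60 at 454 ± 20.8, MOLM-14 at 339 ± 12.9 and KG-1 at 283 ± 10.7 (SD, n = 3), and each step passed.

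TLR5, TLR7 and TLR8 showed no difference that passed in any line. TLR5 ran from 5.18 to 9.10 over the 24 arrays and TLR7 from 5.15 to 7.96, with mean levels at the 12.0th and 5.69th percentile of all genes. Detection calls were not used here, so these low levels are not called absent. The largest TLR5 difference was -0.23 ± 0.10 in HL-60 (limma adjusted p = 0.141) and the largest TLR7 difference -0.10 ± 0.086, also in HL-60, where the arrays did not overlap (limma adjusted p = 0.526). TLR8 ran from 7.42 to 10.3 outside HL-60. In HL-60 it ran from 14.2 to 21.0 with R406 and from 14.9 to 25.6 with DMSO, overlapping groups with a difference of -0.19 ± 0.14 (limma adjusted p = 0.474). The DMSO level of TLR8 in HL-60 was above that of the next line, U937, by 1.00 (limma adjusted p = 2.87e-06), and U937, MOLM-14 and KG-1 did not differ in neighbouring steps. TLR7 was the one member whose DMSO levels showed no difference between lines that passed (limma F test, adjusted p = 0.189).

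**Figure D3:**
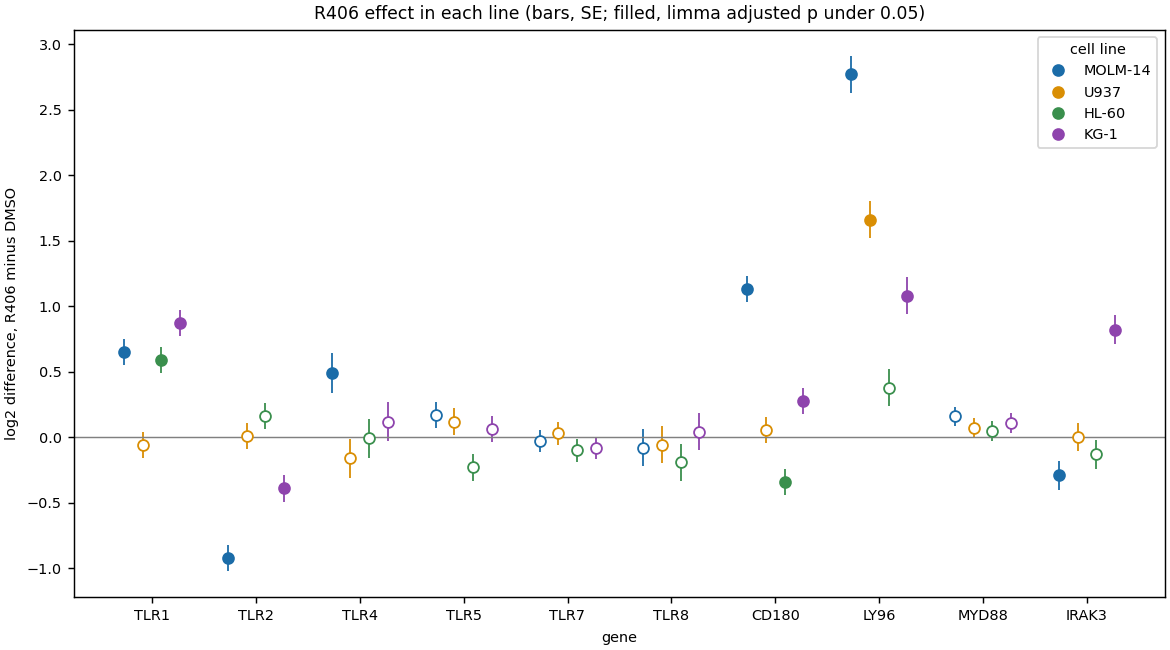
Log2 difference, R406 minus DMSO, of each gene in each line; bars are SE, filled points passed at a limma adjusted p under 0.05 and open points did not. LY96 reaches 2.77 in MOLM-14, TLR2 goes down to -0.92 there, and TLR5, TLR7, TLR8 and MYD88 have open points in every line.

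Counted by line, 6 of the 10 genes were called in MOLM-14, 4 higher and 2 lower, where 56.1% of all genes were called (31.1% higher and 25.0% lower). In U937 LY96 alone was called, against 11.5% of all genes (6.10% higher and 5.43% lower). In KG-1, 5 genes were called, 4 higher and 1 lower, against 44.3% of all genes (23.5% higher and 20.9% lower). In HL-60 TLR1 was called higher and CD180 lower, against 15.2% of all genes (7.20% higher and 7.98% lower). Arrays did not overlap between treatments for 6 members in MOLM-14, 1 in U937, 5 in KG-1 and 4 in HL-60, against 57.7%, 34.0%, 49.7% and 32.8% of all genes. The members' shares lie near the background in each line, except for the lower share of non-overlapping genes in U937. The median differences of the 10 genes were 0.17 in MOLM-14, 0.022 in U937, 0.12 in KG-1 and -0.056 in HL-60, beside 0.068, 0.0029, 0.020 and -0.0029 over all genes. For the mean of the 4 lines, 4 were higher and 1 lower, against 53.0% of all genes called (29.1% higher and 23.9% lower). The R406 effect differed between lines for 5 genes (TLR1, TLR2, CD180, LY96 and IRAK3), against 54.8% of all genes, and the DMSO level for 9, against 68.1%.

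Other genes of the pathway were taken from a list of 44, of which 38 were measured. In MOLM-14, 16 rose and 9 fell, so that 65.8% of the list was called, against 56.1% of all genes. In U937, 4 rose and 2 fell, or 15.8%, against 11.5%. In KG-1, 16 rose and 4 fell, or 52.6%, against 44.3%, and without R406 replicate 2 the counts were 14 and 4. In HL-60, 11 rose and 5 fell, or 42.1%, against 15.2%, with 28.9% of the list and 7.20% of all genes higher. With single arrays left out, 11 to 17 genes of the list were called in HL-60. The list medians were 0.15, 0.025, 0.19 and 0.16 in MOLM-14, U937, KG-1 and HL-60.

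Among co-receptors and chaperones, CD36, a scavenger receptor that works with TLR2 and TLR6, read 136, 129.8 and 158 in MOLM-14 with R406 and 28.4, 24.8 and 28.2 with DMSO. The rise was 2.34 ± 0.11 (limma adjusted p = 3.81e-14), while CD36 fell in HL-60 by -0.57 ± 0.11 (limma adjusted p = 0.00107). The HL-60 arrays read 8.75, 9.07 and 8.49 with R406 and 14.8, 12.4 and 13.2 with DMSO, all below the array medians. HSP90B1, the chaperone gp96 that folds most Toll-like receptors, was lower in all 4 lines, at -0.62, -0.34, -0.55 and -0.39 ± 0.10 in MOLM-14, U937, KG-1 and HL-60, with each passing. In KG-1 it was -0.35 without R406 replicate 2. UNC93B1, which carries endosomal receptors to their compartment, fell in U937 and HL-60 by -0.33 each (limma adjusted p = 0.0418 and 0.0315).

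Among kinases and ubiquitin ligases, MAP3K8, the kinase TPL2 that passes the signal to ERK, rose in MOLM-14, U937 and KG-1. It read 24.5, 16.4 and 19.9 in MOLM-14 with R406 and 5.36, 6.92 and 6.82 with DMSO (1.52 ± 0.12), and rose by 1.10 ± 0.12 in U937 and 1.07 ± 0.12 in KG-1 (1.11 without R406 replicate 2). In HL-60 its difference of -0.041 ± 0.12 did not pass. All U937 and HL-60 arrays of MAP3K8, and the MOLM-14 arrays with DMSO, lay below the array medians. A change is understated there, which limits the comparison of sizes between lines. PELI2, a ubiquitin ligase that acts on IRAK proteins, read 114, 210.1 and 109 in KG-1 with R406 and 25.0, 30.3 and 32.7 with DMSO (2.20 ± 0.16, limma adjusted p = 8.20e-11), with R406 replicate 2 highest (1.90 without it). It rose by 1.28 ± 0.16 in MOLM-14 and 0.57 ± 0.16 in HL-60. The related ligase PELI1 rose in HL-60, by 0.62 ± 0.15 (limma adjusted p = 0.00533). IRAK1, a kinase recruited through MYD88, fell in MOLM-14 and KG-1 by -0.88 and -0.87 ± 0.079 (-0.84 in KG-1 without R406 replicate 2). TRAF3, an adaptor that steers signalling to interferon factors, read 18.5, 18.9 and 19.6 in MOLM-14 with R406 and 73.0, 64.1 and 72.8 with DMSO (-1.82 ± 0.11). It also fell in KG-1 by -0.44 ± 0.11 (limma adjusted p = 0.00266), or -0.57 without R406 replicate 2. Its differences of -0.31 in U937 and 0.28 in HL-60 did not pass.

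Downstream, the interferon factor IRF7 rose in all 4 lines, by 1.55, 0.56, 1.71 and 0.57 ± 0.13 in MOLM-14, U937, KG-1 and HL-60. In KG-1 it read 53.2, 90.7 and 67.6 with R406 and 19.4, 19.3 and 22.3 with DMSO (1.52 without R406 replicate 2). TNFAIP3, the deubiquitinase A20 that ends NF-kB signalling, rose in KG-1 by 0.95 ± 0.13 (limma adjusted p = 2.67e-06; 0.89 without R406 replicate 2) and fell in MOLM-14 by -0.51 ± 0.13 (limma adjusted p = 0.00232).

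**Figure D4:**
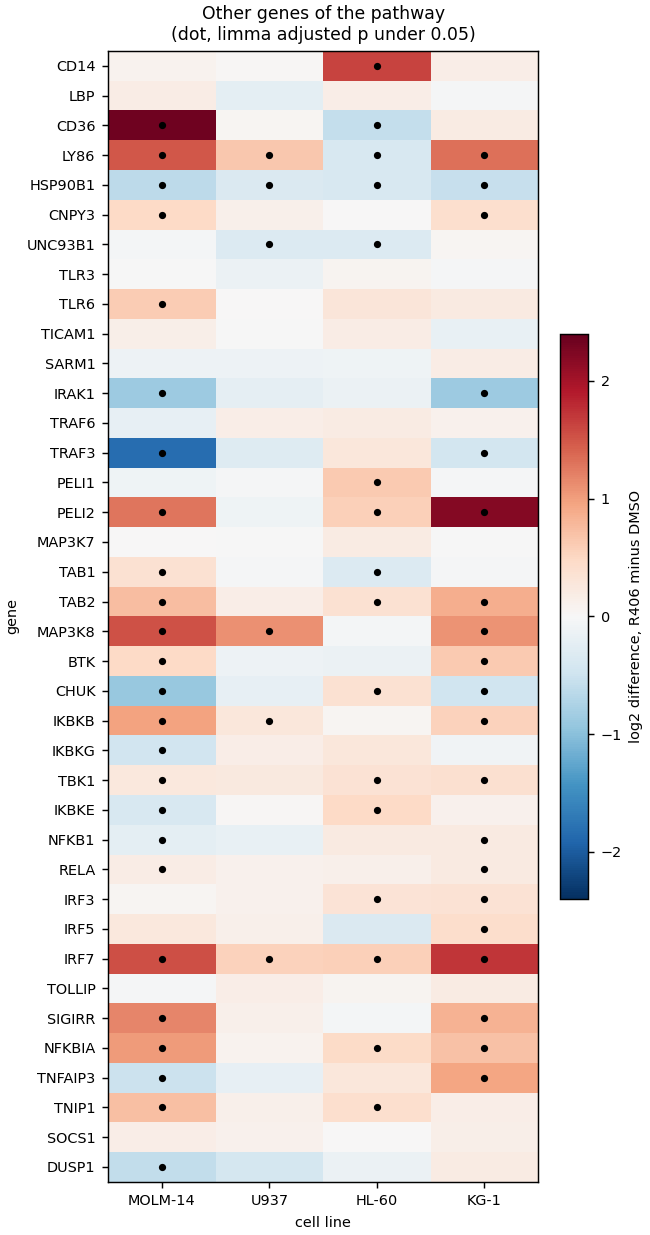
Log2 difference, R406 minus DMSO, of the 38 other pathway genes (rows, by role) in each line (columns); red is higher and blue lower with R406, and a dot marks a limma adjusted p under 0.05. The darkest cells include CD36 (2.34) and TRAF3 (-1.82) in MOLM-14, PELI2 (2.20) and IRF7 (1.71) in KG-1, and CD14 (1.63) in HL-60, and IRF7 and HSP90B1 carry a dot in all 4 lines.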

How the data were processed

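Total RNA of 24 samples, grouped by the cell line and treatment in their labels, was hybridised to Affymetrix human expression arrays. The authors deposited 1 intensity per probe set and array, computed with RMA per the submitters' processing notes. No version, scan batch or genome build is given in the sources used here. Judged by their range the intensities are linear, and tests used log2(intensity + 1).

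Of 22277 probe sets, 62 controls, 568 with several symbols and 1923 with none were set aside, which left 19724 for 12165 genes. A gene was represented by its probe set with the highest mean log2 value, and 4505 genes had several. IRAK3 was the member with more than 1. One model with 8 group means was fitted in limma 3.58.1 (R 4.3.3, lmFit and eBayes, 16 residual and 5.47 prior degrees of freedom). R406 minus DMSO in each line, its mean, its differences between lines (F test and pairs) and the DMSO levels were tested, each adjusted over all genes. The procedure was checked on simulated arrays carrying known fold changes.

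The named genes were the 10 members, CD14, the 5 called pathway genes with the largest differences in each line, and the 3 genes most correlated with each of the 3 members whose effects ranged widest. TLR6 and IRAK1 were named beyond that rule after their values were seen. The members and lists were chosen with earlier results of these data known. Refits used a second quantile normalization, centring on the median, the dimmest tercile of genes left out, averaged probe sets, a pseudocount of 16, a replicate block, single-line fits and each array left out. Replicate numbers were not taken as pairs, since the labels state no pairing. Over all genes, same-numbered R406 and DMSO arrays deviated from their group means with correlations of -0.084 to 0.071. Such values do not settle whether the arrays were paired. CD33, LYZ, TLR9, TLR10, TIRAP, TICAM2, IRAK2 and IRAK4 were not analysed here.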

Additional observations from a re-analysis of the deposited data

Results flagged for a closer look

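The R406 effect differed between the cell lines for 5 of the 10 genes (moderated F test of limma on the differences between lines, 12165 genes, of which 54.8% differed). The adjusted p was 6.06e-09 for LY96, with differences of 2.77, 1.66, 1.08 and 0.38 in MOLM-14, U937, KG-1 and HL-60. It was 9.33e-08 for CD180, which was higher with R406 in MOLM-14 and KG-1 and lower in HL-60 (1.13, 0.28 and -0.34). The KG-1 and HL-60 values of CD180 were dim, and their calls were lost in 5 and 4 refits. The adjusted p was 3.15e-06 for TLR2, lower in MOLM-14 and KG-1 (-0.92 and -0.39). It was 1.52e-05 for IRAK3, higher in KG-1 and lower in MOLM-14 (0.82 and -0.29) on its brighter probe set. The MOLM-14 groups of IRAK3 overlapped on that probe set, and the call was lost in 6 refits. The adjusted p was 4.44e-05 for TLR1, with differences of 0.65, 0.59 and 0.87 in MOLM-14, HL-60 and KG-1. In U937, where TLR1 was dim, its difference was -0.061.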

How the results depend on the processing

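Across 55 single-gene differences (10 members and CD14, in 4 lines and their mean) and 1674 refits, 1613 kept their direction and their side of the threshold, 21 lost a call, 11 gained one, and 29 changed sign without passing either way. No called value reversed. LY96 and TLR1 kept their calls in MOLM-14 and KG-1, and TLR2 its fall in MOLM-14 and KG-1, under all alternatives run. The lost calls were TLR4 and IRAK3 in MOLM-14, CD180 in HL-60 and KG-1, and the small mean rise of MYD88. The LY96 difference in HL-60 passed without HL-60 R406 replicate 3 (0.50), without MOLM-14 DMSO replicate 3 and without KG-1 R406 replicate 2 (0.38 each). In HL-60, 1 member was called instead of 2 when the dimmest tercile of genes was left out, which removes CD180 from the genes tested, and 1 to 3 when single arrays were left out. Other pathway genes called in U937 numbered 6, and 2 to 7 with single arrays left out. In HL-60 they numbered 16, and 11 to 17 with single arrays left out. With the replicate block, 6, 1, 5 and 2 members were called in MOLM-14, U937, KG-1 and HL-60, the same counts as without it, while other pathway genes called in U937 numbered 4 instead of 6. HSP90B1 in U937 and UNC93B1 in U937 and HL-60 were among the calls lost with the block (adjusted p = 0.0805, 0.105 and 0.0833). Best matches did not follow the numbers: 0, 2, 1 and 1 of the 3 R406 arrays in MOLM-14, U937, KG-1 and HL-60 correlated best with the DMSO array of the same number. The cause of the other changes was not tested. TLR5, TLR7, TLR8 and CD180 are in the dimmest tercile, where small differences cannot be read. TLR4 is not, but all its MOLM-14 and KG-1 arrays lay below the array medians.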
